A study of Mus musculus with 9 samples.

Results

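The genes described here build the lysosome: 29 hydrolases and activators of hydrolases, 6 proteins of the lysosomal membrane, 15 subunits and accessory proteins of the vacuolar proton pump (V-ATPase), and the transcription factors Tfeb and Tfe3, which control many of the others. They were chosen by gene symbol, from a list of lysosomal genes drawn up with earlier results of these data known. All 52 symbols were found among the 56748 genes of the deposited table, each once, and all 52 passed the filter on low values that left 14431 genes for testing (an expression level of at least 1 FPKM in at least 3 of the 9 libraries). FPKM is a read count scaled to gene length and library size.

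Lysosomes degrade proteins, glycans, lipids and nucleic acids that reach them by endocytosis or autophagy. Their hydrolases work in an acid lumen, which the V-ATPase maintains by pumping protons at the cost of ATP, with a membrane-embedded V0 sector that carries the protons and a cytosolic V1 sector that splits the ATP. Tfeb and Tfe3 are held in the cytosol when the kinase mTOR is active at the lysosomal surface, and they enter the nucleus and raise lysosomal genes when it is not. Hydroxychloroquine is a weak base that is trapped in acid compartments. In the ovary, granulosa cells surround the oocyte and feed it, and they are cleared by phagocytes and by neighbouring granulosa cells when a follicle degenerates.

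The study addressed granulosa cells of wild-type female C57BL/6 mice in a cyclophosphamide model of premature ovarian failure, by RNA sequencing of polyadenylated RNA. CTX+HCQ mice received cyclophosphamide, an alkylating drug, at 120 mg per kg by injection, together with hydroxychloroquine by mouth (daily dose 40 mg per kg), which started 7 days ahead of cyclophosphamide and lasted until 4 weeks after. CTX mice received the same cyclophosphamide dose alone. Control mice had vehicle according to the series' design and no treatment according to the sample labels, and both descriptions are kept here. Each group had 3 libraries. No group received hydroxychloroquine without cyclophosphamide. The labels state neither mouse ages nor how many mice gave a library. The p-values therefore rest on differences between libraries that may be technical.

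The 9 libraries held between 13919317 recovered reads (CTX+HCQ 3) and 17766697 recovered reads (Control 2). The number of reads behind a single member in a single library ran from 123 for Ctsk to 98695 for Psap. All 9 granulosa markers that were listed were detected in every library, among them Amh at 172 to 540 FPKM, Fshr at 18.2 to 45.7 FPKM and Foxl2 at 67.8 to 104 FPKM. Markers of other cell types were also present: the summed level of 4 luteal markers lay between 1897 and 5784 FPKM, that of 12 macrophage markers between 153 and 290 FPKM, and that of 6 endothelial markers between 18.0 and 57.4 FPKM. CTX+HCQ 3 and CTX 3 stood apart. CTX+HCQ 3 had the fewest reads and the lowest levels of short genes, and in CTX 3 mitochondrial genes took 28.9% of summed FPKM, against 11.7% to 17.5% in the other 8 libraries. In bulk tissue, fewer cells of a type and less RNA per cell cannot be told apart.

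Tfeb and Tfe3 bind a palindromic DNA element, whose core TCACGTGA lies within the longer CLEAR motif, so the promoters of the members were searched for it. RefSeq sequence of build GRCm38.p6, from 250 bases before to 50 bases after each annotated start, was at hand for 44 of the 52 members and for 27025 genes in all. Entries were missing for Ctsb, Ctsh, Asah1, Galns, Atp6v1b2, Atp6v1c1, Atp6v1g1 and Atp6v1h. The element TCACGTGA, which reads the same on both strands, lay in at least 1 promoter entry of 8 of the 44 members (18.2%), in 1.12% of all genes and in 2.16% of the 10091 tested genes with an entry. It was found in 3 of 25 hydrolase promoters, 2 of 6 membrane protein promoters, 3 of 11 V-ATPase promoters and neither of the 2 regulators' own promoters. These 30-base windows are shown because they are the members' stretches that carry the letters bound by Tfeb and Tfe3. They are written 5′ to 3′ on the strand of the gene, with the element in capitals.
Ctsa, chr2:164833749-164833778, + strand: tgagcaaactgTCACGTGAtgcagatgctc
Ctsa, chr2:164833766-164833795, + strand: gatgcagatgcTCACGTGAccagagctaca
Ctsd, chr7:142387908-142387937, - strand: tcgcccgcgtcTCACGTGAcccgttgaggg
Gla, chrX:134601215-134601244, - strand: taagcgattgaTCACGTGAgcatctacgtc
Gla, chrX:134601182-134601211, - strand: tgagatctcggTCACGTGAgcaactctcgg
Mcoln1, chr8:3500462-3500491, + strand: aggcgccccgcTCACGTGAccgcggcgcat
Cln3, chr7:126583340-126583369, - strand: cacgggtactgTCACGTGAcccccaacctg
Atp6v0d1, chr8:105566050-105566079, - strand: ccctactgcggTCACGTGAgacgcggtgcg
Atp6v0e, chr17:26676387-26676416, + strand: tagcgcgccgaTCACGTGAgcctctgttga
Atp6v1a, chr16:44139373-44139402, - strand: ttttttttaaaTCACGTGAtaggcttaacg

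Ctsa and Gla each held the element at 2 positions. Shorter forms contained in the same palindrome were more frequent. TCACGTG, searched on both strands, lay in 14 of 44 member promoters (31.8%), against 4.29% of all genes and 6.88% of the tested genes. CACGTG lay in 15 of 44 (34.1%), against 8.09% of all genes and 11.7% of the tested genes. A match of letters is a description of the window and not a measured binding site. The promoter of Mcoln1, a gene whose product releases calcium from the lysosome, shows the element in its surroundings over 250 bases before the start, of which 61.6% are G or C.
Mcoln1, chr8:3500269-3500518, + strand: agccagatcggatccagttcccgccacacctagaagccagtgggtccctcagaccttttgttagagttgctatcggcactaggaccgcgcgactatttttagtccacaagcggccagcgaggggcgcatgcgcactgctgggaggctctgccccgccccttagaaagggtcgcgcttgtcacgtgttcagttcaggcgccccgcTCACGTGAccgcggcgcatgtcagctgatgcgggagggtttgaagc

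Lysosomal genes were strongly expressed in these cells. The median member had a mean level of 24.2 FPKM over the 9 libraries, against 6.54 FPKM for the median tested gene. Class medians were 25.7 FPKM for the hydrolases, 29.3 FPKM for the membrane proteins, 27.4 FPKM for the V-ATPase and 3.92 FPKM for Tfeb and Tfe3. Psap, which encodes the precursor of the saposins that present lipids to hydrolases, stood far above all others at 1133 FPKM, followed by the protease gene Ctsl at 289 FPKM, the membrane glycoprotein gene Lamp1 at 206 FPKM and the protease gene Ctsd at 199.5 FPKM. The lowest member was Tfeb at 2.65 FPKM. The highest level of a member was a median of 1.88 times its lowest over the 9 libraries, and the corresponding ratio of all tested genes was 2.21.

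**Figure D1:**
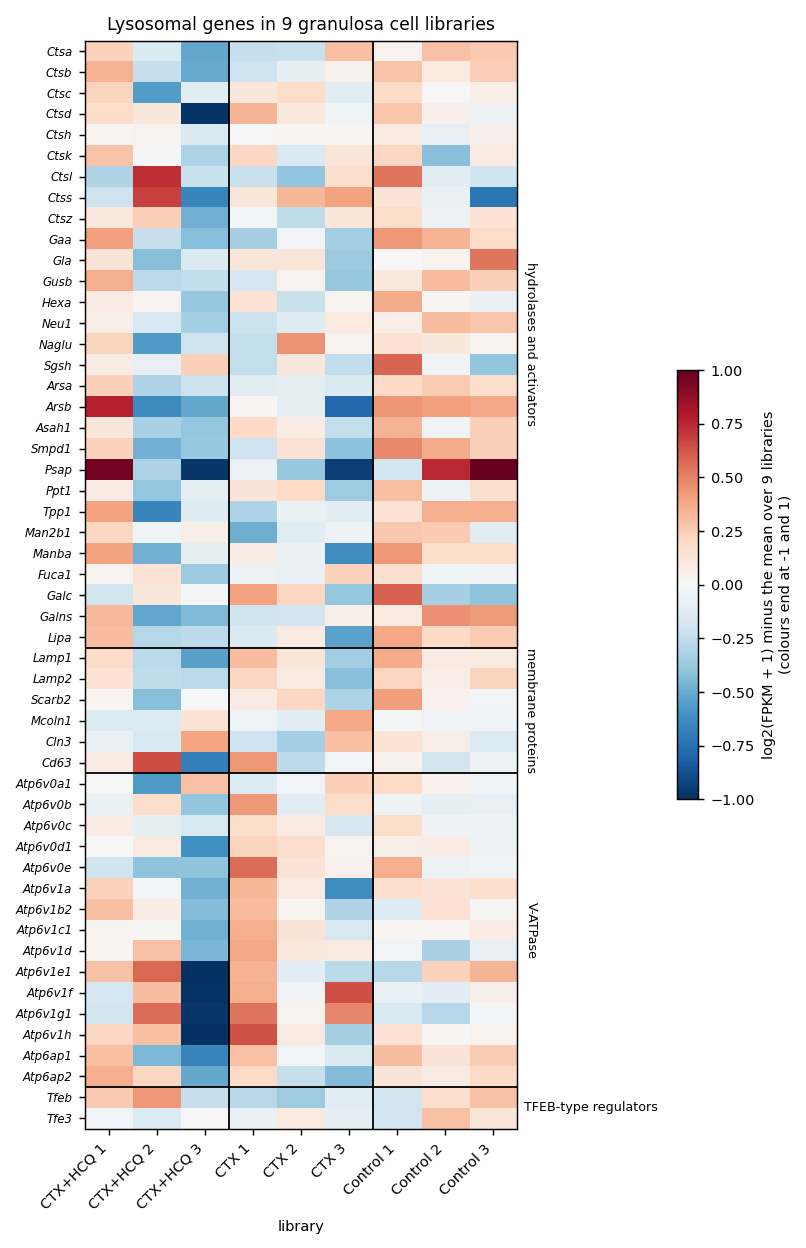
Heat map of the 52 lysosomal genes (rows, by class) in the 9 libraries (columns, by group). Colour gives log2(FPKM + 1) minus the gene's mean over the 9 libraries, with colours ending at -1 and 1. Most V-ATPase genes are blue in CTX+HCQ 3 and red in CTX 1, and Psap is dark red in CTX+HCQ 1 and Control 3.

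No member differed between groups at the threshold used, an adjusted p of 0.05 from limma with Benjamini-Hochberg adjustment over the 14431 tested genes. The count was 0 of 52 members in CTX+HCQ against CTX, 0 of 52 in CTX against Control and 0 of 52 in CTX+HCQ against Control, where the share of all tested genes called was 0% in each. The smallest adjusted p of any gene was 0.394 in CTX+HCQ against CTX, 0.639 in CTX against Control and 0.669 in CTX+HCQ against Control. At an unadjusted p under 0.05, 1 member passed in CTX+HCQ against CTX (5.44% of all tested genes), 2 in CTX against Control (7.80%) and 2 in CTX+HCQ against Control (2.16%). limma voom on recovered reads also called 0 genes in each comparison. Fold changes were computed as differences of log2(FPKM + 1), which makes differences of weakly expressed genes look smaller. The 3 comparisons share libraries in pairs, so that a high or low library enters 2 of them.

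The error of these differences bounds what could be seen. The standard error of a member's log2 fold change had a median of 0.23 and ran from 0.15 to 0.54, the largest being that of Psap. In CTX+HCQ against CTX, the unadjusted 95% interval lay within a log2 of -1 and 1, a 2-fold change either way, for 45 of 52 members (75.5% of all tested genes). The 7 others were Ctsd, Ctss, Psap, Atp6v0e, Atp6v1f, Atp6v1g1 and Atp6v1h. The interval lay within these bounds for 41 of 52 members in CTX against Control (71.7% of all tested genes) and for 43 of 52 in CTX+HCQ against Control (80.0%).

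**Figure D2:**
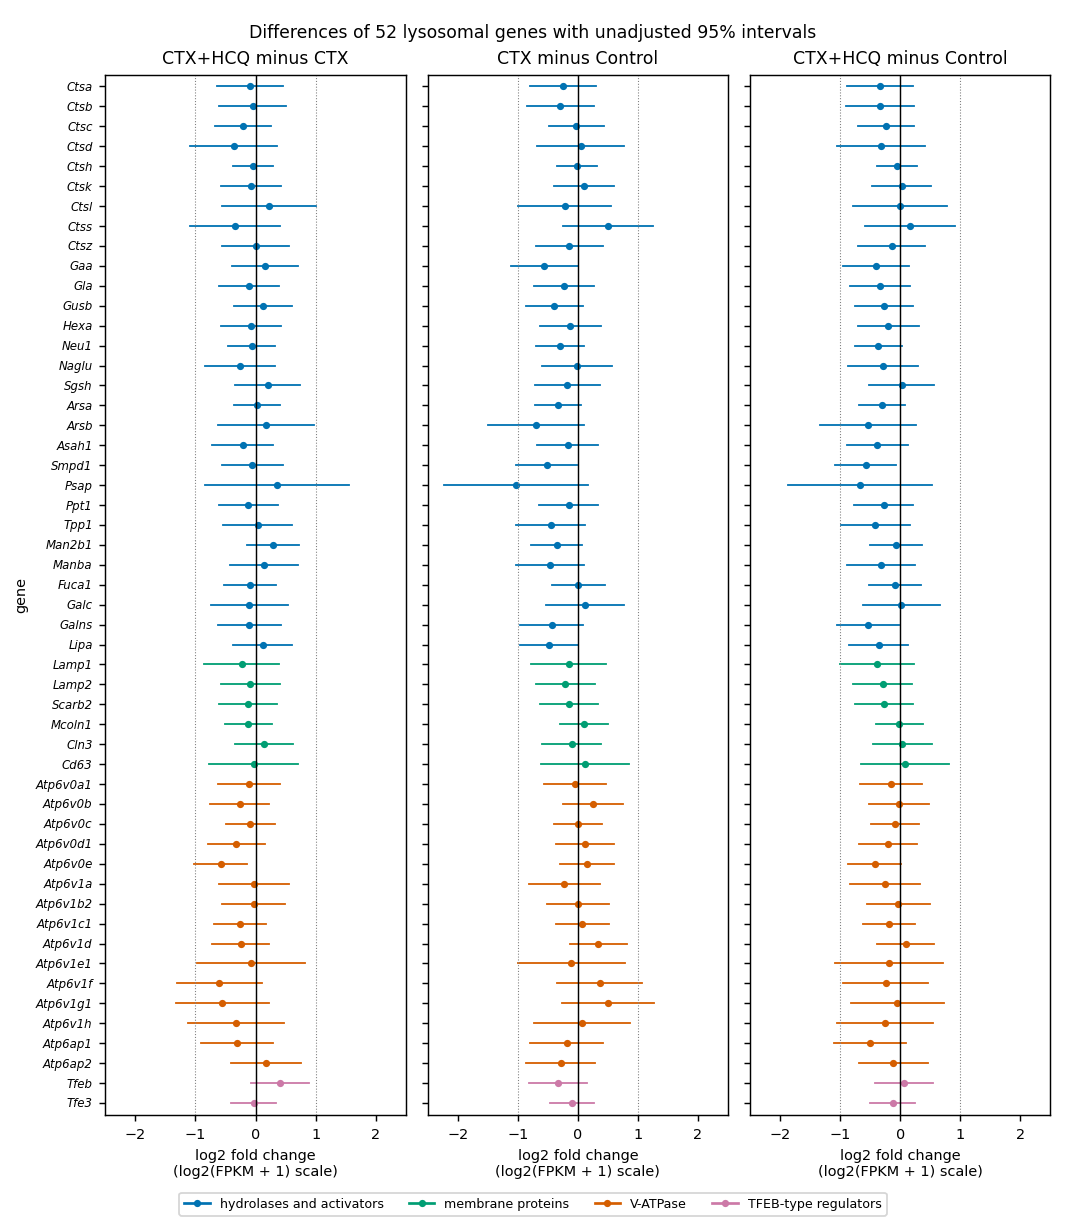
Log2 fold change on the log2(FPKM + 1) scale (points) with its unadjusted 95% interval (lines) for each of the 52 lysosomal genes in CTX+HCQ minus CTX, CTX minus Control and CTX+HCQ minus Control, coloured by class. Dotted lines mark -1 and 1. The interval of Psap is the widest in each panel, and most V-ATPase points lie left of 0 in CTX+HCQ minus CTX and CTX+HCQ minus Control.

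Among the proteases, Ctsl, a cysteine cathepsin, had 227, 465 and 239 FPKM in CTX+HCQ libraries, 239, 212 and 315 FPKM in CTX libraries, and 405, 258 and 243 FPKM in Control libraries. Ctsd, the aspartic cathepsin, had 220, 210 and 97.6 FPKM in CTX+HCQ libraries, 246, 209 and 189 FPKM in CTX libraries, and 235, 201 and 187 FPKM in Control libraries. Ctsb, a cysteine cathepsin, had 167, 112 and 92.1 FPKM in CTX+HCQ libraries, 114, 123 and 135 FPKM in CTX libraries, and 160, 140 and 156 FPKM in Control libraries. The high Ctsl values came from 1 CTX+HCQ and 1 Control library, the low Ctsd value from CTX+HCQ 3, and Ctsb was below every Control library in all 3 CTX libraries. Ctsd differed by a log2 of -0.36 in CTX+HCQ against CTX (SE 0.33, limma adjusted p = 0.906), and by 0.01 without CTX+HCQ 3. The carboxypeptidase gene Ctsz averaged 142 ± 34.8 FPKM in CTX+HCQ, 139 ± 18.4 FPKM in CTX and 153 ± 13.0 FPKM in Control libraries (SD, n = 3 each). Ctsa, whose product protects the sialidase Neu1, averaged 52.6 ± 13.8 FPKM in CTX+HCQ, 55.7 ± 12.7 FPKM in CTX and 65.5 ± 6.38 FPKM in Control libraries. In both genes the groups overlapped.

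The other cathepsins are known mainly from haematopoietic cells and connective tissue. Ctss, a protease of antigen-presenting cells, had 18.6, 35.5 and 13.3 FPKM in CTX+HCQ libraries, 23.6, 27.5 and 28.96 FPKM in CTX libraries, and 23.8, 20.6 and 12.8 FPKM in Control libraries. The summed level of the 12 macrophage markers was 198, 290 and 161 FPKM in CTX+HCQ libraries, 201, 231 and 256 FPKM in CTX libraries, and 225, 223 and 153 FPKM in Control libraries. The library with the highest Ctss level, CTX+HCQ 2, also had the highest macrophage sum, and the libraries with the lowest Ctss levels, Control 3 and CTX+HCQ 3, had the lowest sums. Lyz2 was the largest part of the sum, with 141 of 290 FPKM in CTX+HCQ 2. Csf1r, C1qa, C1qb, C1qc, Mrc1, Lyz2 and Aif1 were highest in CTX+HCQ 2. However, Cd68, Cd14, Tyrobp and Fcer1g were highest in CTX 3, and Adgre1 was highest in Control 1. None of the 12 macrophage markers was called in any comparison, all 12 were detected in every library, and their part in the Ctss level was not tested. Ctsc, which activates serine proteases of immune granules, had 9.17, 4.91 and 7.05 FPKM in CTX+HCQ libraries, 8.38, 8.87 and 7.05 FPKM in CTX libraries, and 8.91, 7.72 and 8.12 FPKM in Control libraries. Ctsk, the collagen-degrading cathepsin of osteoclasts, had 8.58, 6.77 and 5.30 FPKM in CTX+HCQ libraries, 8.10, 6.07 and 7.57 FPKM in CTX libraries, and 8.06, 4.90 and 7.34 FPKM in Control libraries. In neither gene did any pair of groups separate. Ctsh, an aminopeptidase, was the steadiest member, with 14.9, 15.2 and 13.2 FPKM in CTX+HCQ libraries, 14.8, 15.0 and 14.9 FPKM in CTX libraries, and 15.8, 13.9 and 15.3 FPKM in Control libraries. Its standard deviation over the 9 libraries was larger than that of only 0.0970% of the tested genes.

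**Figure D3:**
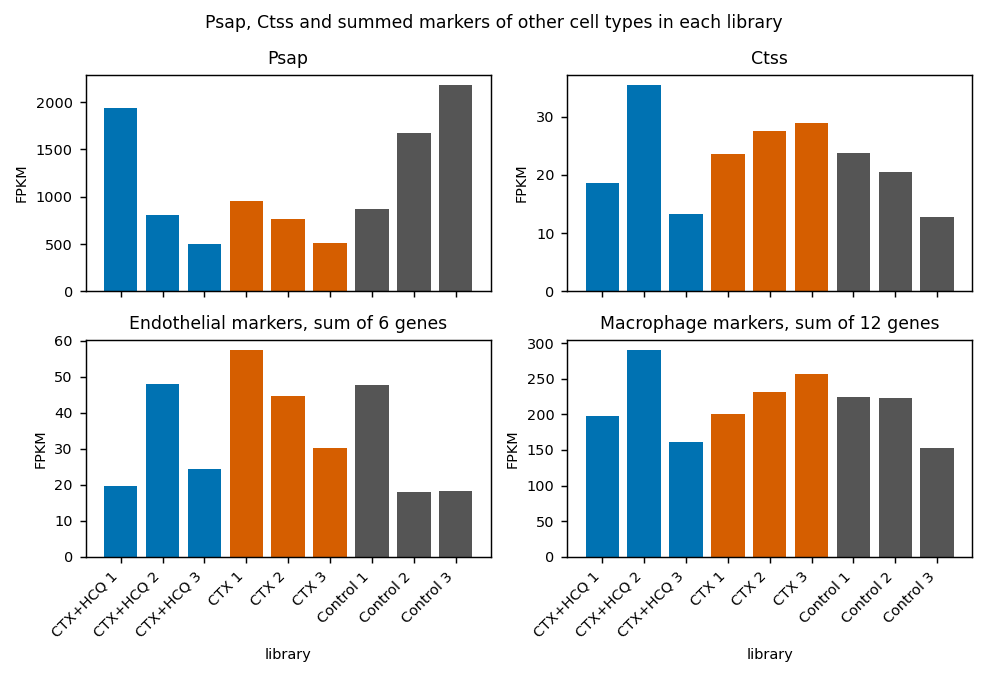
Level of Psap and Ctss (top) and summed level of 6 endothelial and 12 macrophage marker genes (bottom), in FPKM, in each of the 9 libraries, coloured by group. The libraries highest in Psap (CTX+HCQ 1, Control 2 and Control 3) have the lowest endothelial sums, and the library highest in Ctss (CTX+HCQ 2) has the highest macrophage sum.

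Psap was both the most abundant and the most variable member. It had 1933, 803 and 505 FPKM in CTX+HCQ libraries, 953, 761 and 515 FPKM in CTX libraries, and 869, 1678 and 2182 FPKM in Control libraries. The 3 libraries CTX+HCQ 1, Control 2 and Control 3 were high, and every pair of groups overlapped. The log2 fold change was 0.36 in CTX+HCQ against CTX (SE 0.54, limma adjusted p = 0.931), -1.03 in CTX against Control (adjusted p = 0.653) and -0.67 in CTX+HCQ against Control (adjusted p = 1). The 95% interval of the CTX difference from Control ran from -2.23 to 0.17. Psap varied more between libraries than 95.6% of the tested genes, with a highest level 4.32 times its lowest, and it made up 18.2% to 47.3% of the summed FPKM of all 52 members. Without CTX+HCQ 1, the difference in CTX+HCQ against CTX was -0.18. The 3 libraries high in Psap had endothelial marker sums of 19.7 FPKM (CTX+HCQ 1), 18.0 FPKM (Control 2) and 18.2 FPKM (Control 3), against 24.4 to 57.4 FPKM in the other 6 libraries. All 6 endothelial markers were detected in every library, and all but Kdr, which was lowest in CTX 3, were lower in these 3 libraries than elsewhere. Some markers from the luteal and theca lists also set the 3 libraries apart, in differing directions. The luteal marker Parm1 had 55.1, 59.6 and 75.4 FPKM in them, against 7.03 to 13.6 FPKM in the other 6 libraries. The theca marker Cyp17a1 had 0.96, 0.58 and 0.99 FPKM, against 7.06 to 45.5 FPKM. The part of any of these markers in the Psap level was not tested.

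Of the enzymes that break down glycogen and sphingomyelin, Gaa and Smpd1 had the smallest unadjusted p of the members in CTX against Control. Gaa (ENSMUSG00000025579), the acid glucosidase that degrades glycogen, had 96.0, 61.05 and 53.1 FPKM in CTX+HCQ libraries, 56.7, 70.3 and 56.4 FPKM in CTX libraries, and 97.4, 91.2 and 81.7 FPKM in Control libraries. Smpd1 (ENSMUSG00000037049), acid sphingomyelinase, had 15.6, 9.17 and 9.86 FPKM in CTX+HCQ libraries, 11.3, 14.6 and 9.67 FPKM in CTX libraries, and 18.8, 17.3 and 15.7 FPKM in Control libraries. All CTX libraries lay below all Control libraries for both genes, whereas CTX+HCQ 1 reached the level of Control libraries for Gaa and came close to the lowest one for Smpd1. The Gaa difference in CTX against Control was -0.56 (SE 0.25, unadjusted p = 0.0486, limma adjusted p = 0.639). The Smpd1 difference was -0.52 in CTX against Control (SE 0.23, unadjusted p = 0.044, limma adjusted p = 0.639) and -0.58 in CTX+HCQ against Control (SE 0.23, unadjusted p = 0.0292, limma adjusted p = 1). These did not pass the correction over all tested genes.

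Sulfatases remove sulfate groups from glycans and lipids. Galns, which acts on keratan sulfate, had 8.44, 4.27 and 4.55 FPKM in CTX+HCQ libraries, 5.56, 5.61 and 6.87 FPKM in CTX libraries, and 7.05, 9.36 and 9.13 FPKM in Control libraries. Arsb, which acts on dermatan sulfate, had 46.8, 16.9 and 18.6 FPKM in CTX+HCQ libraries, 27.2, 25.0 and 15.2 FPKM in CTX libraries, and 36.8, 36.0 and 35.2 FPKM in Control libraries. CTX libraries lay below all Control libraries for both genes, and for both CTX+HCQ 1 was the highest of its group. The Galns difference in CTX+HCQ against Control was -0.54 (SE 0.23, unadjusted p = 0.0447, limma adjusted p = 1). Arsa, which acts on sulfatide, averaged 5.45 ± 1.37 FPKM in CTX+HCQ, 5.28 ± 0.112 FPKM in CTX and 6.87 ± 0.233 FPKM in Control libraries (SD, n = 3 each), and its CTX libraries lay below its Control libraries. Sgsh, a sulfatase of heparan sulfate, averaged 7.12 ± 0.896 FPKM in CTX+HCQ, 6.07 ± 1.04 FPKM in CTX and 7.25 ± 2.90 FPKM in Control libraries, with overlap of all groups.

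Glycosidases remove sugars from glycoproteins, glycolipids and proteoglycans. Man2b1, a mannosidase, had 23.9, 19.998 and 21.5 FPKM in CTX+HCQ libraries, 14.4, 18.97 and 19.884 FPKM in CTX libraries, and 25.0, 24.9 and 18.9 FPKM in Control libraries. It was the only member whose CTX+HCQ libraries all lay above the CTX libraries (3.45% of all tested genes), by a log2 of 0.29 (SE 0.19, limma adjusted p = 0.906), with CTX+HCQ 2 (19.998 FPKM) and CTX 3 (19.884 FPKM) nearly level. Gusb, which removes glucuronic acid, averaged 24.9 ± 6.77 FPKM in CTX+HCQ, 22.5 ± 3.40 FPKM in CTX and 29.6 ± 2.16 FPKM in Control libraries (SD, n = 3 each). Manba, the other mannosidase, averaged 7.54 ± 2.64 FPKM in CTX+HCQ, 6.63 ± 1.81 FPKM in CTX and 9.38 ± 1.10 FPKM in Control libraries. For both, every CTX library lay below every Control library. Neu1, the sialidase, averaged 13.8 ± 2.10 FPKM in CTX+HCQ, 14.4 ± 1.74 FPKM in CTX and 17.9 ± 1.71 FPKM in Control libraries. Naglu, a glucosaminidase of heparan sulfate, averaged 81.3 ± 22.6 FPKM in CTX+HCQ, 97.4 ± 23.8 FPKM in CTX and 96.9 ± 4.05 FPKM in Control libraries. Hexa, a subunit of the hexosaminidase that degrades gangliosides, averaged 79.7 ± 13.5 FPKM in CTX+HCQ, 83.4 ± 10.6 FPKM in CTX and 91.4 ± 15.4 FPKM in Control libraries. Among these, only Neu1 separated a pair of groups, with the CTX+HCQ libraries below the Control libraries, although CTX+HCQ 1 (15.96 FPKM) and Control 1 (15.97 FPKM) nearly met. Fuca1, the fucosidase, averaged 32.2 ± 5.84 FPKM in CTX+HCQ, 34.1 ± 4.34 FPKM in CTX and 33.9 ± 2.88 FPKM in Control libraries. Gla, a galactosidase whose promoter holds TCACGTGA at 2 positions, averaged 4.86 ± 1.12 FPKM in CTX+HCQ, 5.32 ± 1.15 FPKM in CTX and 6.40 ± 1.61 FPKM in Control libraries. Galc, which degrades galactosylceramide, averaged 6.36 ± 0.765 FPKM in CTX+HCQ, 7.08 ± 2.13 FPKM in CTX and 6.62 ± 3.15 FPKM in Control libraries. All groups overlapped for these genes.

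The remaining hydrolases act on lipids and peptides. Lipa, the acid lipase that frees cholesterol from its esters, averaged 9.02 ± 2.47 FPKM in CTX+HCQ, 8.196 ± 1.92 FPKM in CTX and 11.6 ± 0.863 FPKM in Control libraries (SD, n = 3 each). Asah1, acid ceramidase, averaged 70.3 ± 14.1 FPKM in CTX+HCQ, 81.3 ± 12.5 FPKM in CTX and 91.2 ± 12.1 FPKM in Control libraries. For Lipa the CTX libraries lay below the Control libraries without overlap, and for Asah1 the groups overlapped. Tpp1, a tripeptidyl peptidase, averaged 36.4 ± 13.5 FPKM in CTX+HCQ, 34.0 ± 3.01 FPKM in CTX and 46.8 ± 4.03 FPKM in Control libraries. Ppt1, which removes palmitate from proteins, averaged 37.9 ± 6.28 FPKM in CTX+HCQ, 41.6 ± 8.34 FPKM in CTX and 45.9 ± 5.66 FPKM in Control libraries. The CTX libraries of Tpp1 lay below its Control libraries, and the groups of Ppt1 overlapped.

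Most of the hydrolases had a lower mean in both cyclophosphamide groups than in Control, without any call. In CTX against Control, 24 of 29 had a negative log2 fold change (50.5% of all tested genes), with a median of -0.22 (-0.0045 over all tested genes). For 10 of the 29 hydrolases, Ctsb, Gaa, Gusb, Arsa, Arsb, Smpd1, Tpp1, Manba, Galns and Lipa, every CTX library lay below every Control library (11.0% of all tested genes), and for none did every CTX library lie above (8.72%). Over all alternatives the class median stayed between -0.28 and -0.16, with 18 to 27 of 29 below 0. In CTX+HCQ against Control, 25 of 29 had a negative log2 fold change (51.9% of all tested genes), with a median of -0.31 (-0.011 over all tested genes), and Neu1 and Smpd1 lay below without overlap (3.06%), while none lay above (3.25%). With limma's library weights that median was 0.02, with 13 of 29 below 0. Between CTX+HCQ and CTX, 17 of 29 had a negative log2 fold change (47.9% of all tested genes), with a median of -0.05 (0.013 over all tested genes). That balance turned on single libraries: without CTX+HCQ 3 it was 7 of 29 and the median 0.07, and without CTX+HCQ 1 it was 26 of 29 and the median -0.18. By library, the median hydrolase deviated from its mean over the 9 libraries by 0.22, -0.23 and -0.32 in CTX+HCQ, by -0.06, -0.07 and -0.11 in CTX and by 0.20, 0.10 and 0.17 in Control libraries, on the log2 scale. CTX+HCQ 1 stood with the Control libraries, and the other CTX+HCQ libraries below the CTX libraries. The summed level of 7 markers of stroma and fibroblasts also separated CTX from Control and was highest in CTX+HCQ 1, with 248.6, 219 and 113 FPKM in CTX+HCQ, 149, 151 and 118 FPKM in CTX and 217, 190 and 189.5 FPKM in Control libraries. The stromal sum in CTX+HCQ 2 also exceeded every Control library, whereas the median hydrolase stood at -0.23 in CTX+HCQ 2. Col1a1, Col1a2 and Col3a1 made up most of the sum. Of the 7 markers, Dcn, Col1a1 and Col3a1 separated CTX from Control, and Lum, Pdgfra, Col1a2 and Mfap5 overlapped. All 7 were detected in every library, and their part in the hydrolase levels was not tested.

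**Figure D4:**
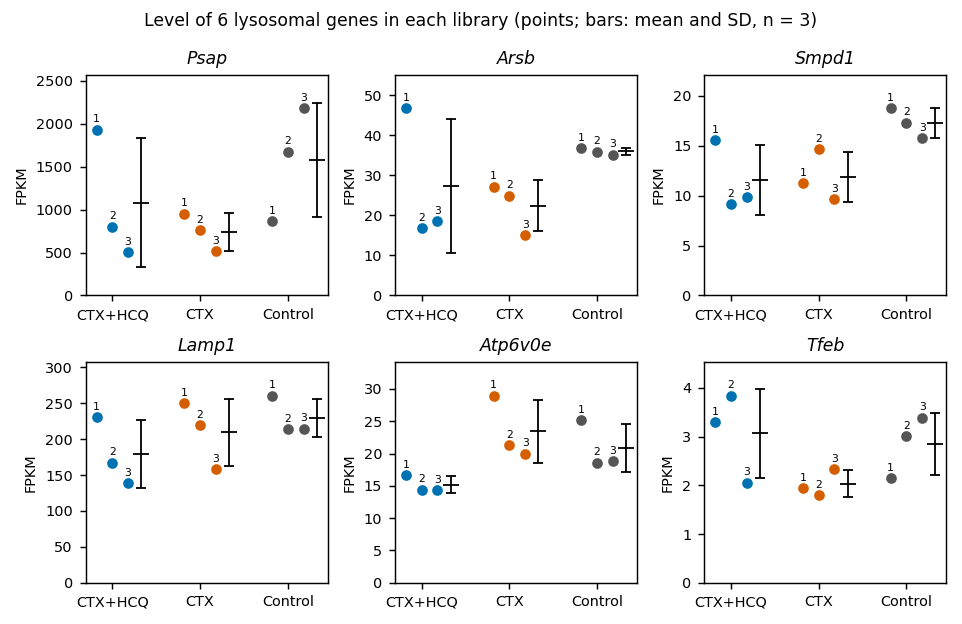
Level in FPKM of 6 lysosomal genes in each library (points, numbered by replicate) with group mean and SD (n = 3), for CTX+HCQ, CTX and Control. Psap and Arsb are highest in CTX+HCQ 1 within the CTX+HCQ group, Smpd1 is lower in all CTX than in all Control libraries, and Atp6v0e is lower in all CTX+HCQ than in all CTX and Control libraries.

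Among the membrane proteins, Lamp1 (ENSMUSG00000031447), the most abundant glycoprotein of the lysosomal membrane, had 231, 167 and 138.5 FPKM in CTX+HCQ libraries, 250, 219.5 and 158 FPKM in CTX libraries, and 261, 214 and 215 FPKM in Control libraries. Lamp2, its relative that also serves chaperone-mediated autophagy, had 41.5, 31.3 and 31.0 FPKM in CTX+HCQ libraries, 43.8, 39.9 and 27.6 FPKM in CTX libraries, and 43.6, 39.4 and 43.8 FPKM in Control libraries. In both genes, CTX 3, CTX+HCQ 2 and CTX+HCQ 3 were below every Control library, and the groups overlapped. The Lamp1 difference was -0.23 in CTX+HCQ against CTX (SE 0.28, limma adjusted p = 0.916), -0.15 in CTX against Control (adjusted p = 0.860) and -0.39 in CTX+HCQ against Control (adjusted p = 1). For CTX+HCQ against CTX its sign turned under quantile normalization, to 0.06, and for CTX against Control it turned without CTX 3, to 0.03. The Lamp2 difference was -0.21 in CTX against Control (SE 0.22, limma adjusted p = 0.760) and -0.29 in CTX+HCQ against Control (adjusted p = 1).

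Scarb2, a membrane receptor that carries a hydrolase to the lysosome, had 20.7, 14.9 and 20.5 FPKM in CTX+HCQ libraries, 21.6, 23.7 and 16.3 FPKM in CTX libraries, and 27.6, 21.02 and 19.98 FPKM in Control libraries. Mcoln1, the calcium-releasing channel, had 7.16, 7.14 and 8.88 FPKM in CTX+HCQ libraries, 7.69, 7.27 and 10.7 FPKM in CTX libraries, and 7.83, 7.78 and 7.76 FPKM in Control libraries. Cd63, a tetraspanin of late endosomes, had 89.3, 133 and 52.2 FPKM in CTX+HCQ libraries, 115, 70.2 and 82.8 FPKM in CTX libraries, and 86.9, 74.1 and 81.4 FPKM in Control libraries. Mcoln1 was nearly level except in CTX 3 and CTX+HCQ 3, which were the highest, and Cd63 was widest apart within CTX+HCQ. The Mcoln1 difference in CTX+HCQ against CTX was -0.12 (95% interval -0.51 to 0.28, limma adjusted p = 0.930), and 0.04 without CTX 3. The Scarb2 difference in CTX against Control was -0.15 (SE 0.22, limma adjusted p = 0.826). Cln3, the gene of juvenile neuronal ceroid lipofuscinosis, averaged 8.67 ± 2.06 FPKM in CTX+HCQ, 7.82 ± 2.18 FPKM in CTX and 8.32 ± 0.889 FPKM in Control libraries (SD, n = 3 each). Of the 6 membrane proteins, 5 had a negative log2 fold change in CTX+HCQ against CTX (median -0.10), 4 in CTX against Control (median -0.13) and 4 in CTX+HCQ against Control (median -0.15). The shares of all tested genes were 47.9%, 50.5% and 51.9% in that order. Under quantile normalization, 2 of 6 were negative in CTX+HCQ against CTX, with a median of 0.03. None of the 6 separated any pair of groups.

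In the proton pump, the V0 sector gene Atp6v0e (ENSMUSG00000015575), a small subunit with TCACGTGA just after its start, had 16.7, 14.4 and 14.4 FPKM in CTX+HCQ libraries, 28.99, 21.4 and 20.01 FPKM in CTX libraries, and 25.2, 18.6 and 18.8 FPKM in Control libraries. All CTX+HCQ libraries lay below all CTX and all Control libraries. The difference was -0.58 in CTX+HCQ against CTX (SE 0.20, unadjusted p = 0.0158, limma adjusted p = 0.768) and -0.43 in CTX+HCQ against Control (SE 0.20, limma adjusted p = 1). Atp6v0e was the only member below CTX without overlap in CTX+HCQ (4.57% of all tested genes). Over all alternatives the difference from CTX stayed between -0.68 and -0.43, and it did not reach the threshold under any. Its isoform Atp6v0e2, which belongs to a list of further V-ATPase genes, averaged 101.5 ± 47.6 FPKM in CTX+HCQ, 113 ± 14.8 FPKM in CTX and 139 ± 14.5 FPKM in Control libraries (SD, n = 3 each), with a log2 fold change of -0.56 in CTX+HCQ against Control (SE 0.34, limma adjusted p = 1). Its CTX+HCQ libraries had 148, 104 and 52.5 FPKM and overlapped the Control libraries (152, 123 and 140 FPKM), with CTX+HCQ 3 the lowest.

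Other V0 genes were steadier. Atp6v0c, the proteolipid that forms the proton-carrying ring, had 36.0, 31.7 and 30.3 FPKM in CTX+HCQ libraries, 38.5, 35.9 and 29.99 FPKM in CTX libraries, and 38.7, 32.6 and 32.8 FPKM in Control libraries. Atp6v0b, a further ring subunit, averaged 61.9 ± 12.4 FPKM in CTX+HCQ, 74.5 ± 13.8 FPKM in CTX and 61.8 ± 1.11 FPKM in Control libraries (SD, n = 3 each). Atp6v0d1, which joins the ring to the central stalk, averaged 35.8 ± 8.94 FPKM in CTX+HCQ, 43.9 ± 3.05 FPKM in CTX and 40.4 ± 1.89 FPKM in Control libraries. Atp6v0a1, the subunit along which protons enter and leave the ring, averaged 19.4 ± 5.86 FPKM in CTX+HCQ, 20.6 ± 2.96 FPKM in CTX and 21.2 ± 1.86 FPKM in Control libraries. No pair of groups separated for these 4 genes.

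In the V1 sector, the catalytic subunit gene Atp6v1a had 15.3, 12.7 and 8.95 FPKM in CTX+HCQ libraries, 16.5, 13.8 and 8.03 FPKM in CTX libraries, and 14.6, 14.3 and 14.6 FPKM in Control libraries. Atp6v1b2, the non-catalytic nucleotide-binding subunit, had 24.1, 20.4 and 14.1 FPKM in CTX+HCQ libraries, 24.2, 19.7 and 15.5 FPKM in CTX libraries, and 17.6, 21.5 and 19.5 FPKM in Control libraries. In both genes CTX+HCQ 3 and CTX 3 were the lowest of all 9. Atp6v1f, a subunit of the central stalk, had 45.5, 63.6 and 25.2 FPKM in CTX+HCQ libraries, 65.8, 49.7 and 80.4 FPKM in CTX libraries, and 48.5, 47.5 and 52.9 FPKM in Control libraries. Atp6v1d, another stalk subunit, had 12.7, 15.5 and 8.84 FPKM in CTX+HCQ libraries, 16.7, 13.5 and 13.4 FPKM in CTX libraries, and 12.3, 9.80 and 11.8 FPKM in Control libraries. Atp6v1g1, of the peripheral stalk, had 69.6, 117 and 39.9 FPKM in CTX+HCQ libraries, 115, 81.0 and 111 FPKM in CTX libraries, and 71.2, 64.6 and 78.0 FPKM in Control libraries. For Atp6v1d and Atp6v1g1 every CTX library lay above every Control library, and for all 3 genes CTX+HCQ 3 was the lowest of the 9.

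The Atp6v1f difference in CTX+HCQ against CTX was -0.60 (SE 0.32, limma adjusted p = 0.906), with a 95% interval of -1.31 to 0.10. In CTX against Control, Atp6v1d differed by 0.34 (SE 0.21, limma adjusted p = 0.660) and Atp6v1g1 by 0.50 (SE 0.35, limma adjusted p = 0.679). Atp6v1e1, a subunit of the peripheral stalk, averaged 27.6 ± 14.5 FPKM in CTX+HCQ, 26.3 ± 6.34 FPKM in CTX and 28.4 ± 6.32 FPKM in Control libraries (SD, n = 3 each). Atp6v1c1, which holds the sectors together, averaged 8.39 ± 1.75 FPKM in CTX+HCQ, 10.2 ± 2.005 FPKM in CTX and 9.55 ± 0.248 FPKM in Control libraries. Atp6v1h, a regulatory subunit, averaged 9.07 ± 4.45 FPKM in CTX+HCQ, 11.01 ± 4.06 FPKM in CTX and 10.03 ± 0.548 FPKM in Control libraries. Groups overlapped for these 3 genes.

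Of the accessory proteins, Atp6ap1, which takes part in assembly of the pump, had 107, 63.4 and 54.4 FPKM in CTX+HCQ libraries, 106, 85.4 and 78.7 FPKM in CTX libraries, and 108, 95.1 and 104 FPKM in Control libraries. Atp6ap2, also known as the prorenin receptor, averaged 35.7 ± 10.7 FPKM in CTX+HCQ, 31.1 ± 7.41 FPKM in CTX and 37.5 ± 1.58 FPKM in Control libraries (SD, n = 3 each). The first libraries of the CTX+HCQ and CTX groups matched the Control level of Atp6ap1 and the others lay below it. The Atp6ap1 difference was -0.31 in CTX+HCQ against CTX (SE 0.27, limma adjusted p = 0.906), -0.19 in CTX against Control (adjusted p = 0.827) and -0.50 in CTX+HCQ against Control (adjusted p = 1).

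Across the pump, 14 of 15 genes, all but Atp6ap2, had a negative log2 fold change in CTX+HCQ against CTX (47.9% of all tested genes). The median was -0.26 (0.013 over all tested genes). Both sectors shared this, with 5 of 5 V0 genes at a median of -0.27 and 8 of 8 V1 genes at a median of -0.25. Without CTX+HCQ 3 the count was 10 of 15 and the median -0.09, without CTX 1 it was 11 of 15 and -0.14, and without CTX+HCQ 2 it was 13 of 15 and -0.40. With library weights, 9 of 15 were negative at a median of -0.16. In CTX against Control, 5 of 15 were negative (50.5% of all tested genes), with a median of 0.07 (-0.0045 over all tested genes). Without CTX 1 the count was 9 and the median -0.05, and without CTX 3 it was 3 and the median 0.17. Atp6v1d and Atp6v1g1 were the 2 genes above Control without overlap in CTX (8.72% of all tested genes). Between CTX+HCQ and Control, 14 of 15 were negative (51.9% of all tested genes), with a median of -0.19 (-0.011 over all tested genes). Without CTX+HCQ 3, however, it was 6 of 15, with a median of 0.12. With library weights it was 7 of 15, with a median of 0.0024.

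By library, the median V-ATPase gene deviated from its mean over the 9 libraries by 0.02, 0.09 and -0.48 in CTX+HCQ, by 0.35, 0.03 and -0.14 in CTX and by 0.06, 0.02 and 0.01 in Control libraries, on the log2 scale. CTX+HCQ 3 was thus the lowest library and CTX 1 the highest. The summed level of 4 luteal markers was 2838, 4219 and 1897 FPKM in CTX+HCQ, 5784, 4612 and 4664 FPKM in CTX and 4439, 2084 and 2591 FPKM in Control libraries. That of 5 theca markers was 1575, 1388 and 631 FPKM in CTX+HCQ, 2093, 1546 and 963 FPKM in CTX and 1741, 1323 and 1589 FPKM in Control libraries. Both sums were thus also lowest in CTX+HCQ 3 and highest in CTX 1, and the luteal sum was lower in every CTX+HCQ library than in every CTX library. The summed level of 7 oviduct and ciliated cell markers also separated these groups, with 106, 135 and 79.5 FPKM in CTX+HCQ and 253, 215 and 527 FPKM in CTX libraries, against 192, 106 and 91.7 FPKM in Control libraries. In CTX+HCQ against CTX, 3 of 4 luteal, 3 of 4 tested theca and 7 of 7 oviduct markers had a negative log2 fold change, with 0 called. All of these markers had a level above 0 in every library, but some were close to it. The lowest levels were 0.012 FPKM for Dnah5, 0.023 FPKM for Foxj1 and 0.097 FPKM for Insl3, which was not tested. Hsd3b1 made up most of the luteal sum, Cyp11a1 most of the theca sum, and Ovgp1 most of the oviduct sum in CTX 3. In all other libraries the tubulin gene Tubb4b made up most of the oviduct sum, with 92.4, 122.5 and 61.1 FPKM in CTX+HCQ libraries. Ovgp1 had 4.69, 4.90 and 11.3 FPKM there. Of the tested theca markers, Cyp11a1, Star and Lhcgr were lowest in CTX+HCQ 3. Cyp17a1 went the other way, with its highest level in CTX+HCQ 3 (45.5 FPKM, against 7.06 FPKM in CTX 1). The part of these cell types in the V-ATPase levels was not tested. Levels also moved with gene length, in these and in other libraries. The 4811 tested genes with exons summing to at most 2679 bases had a median deviation of -0.29 in CTX+HCQ 3, against 0.13 in CTX 1. The 4811 genes with exons over 5314 bases had 0.17 in CTX+HCQ 3, against -0.09 in CTX 1. CTX 1 was not the extreme for either length. The short genes had 0.19 in CTX+HCQ 2 and 0.18 in CTX 3, and the long genes -0.12 and -0.16. The V-ATPase median was 0.09 and -0.14 in these 2 libraries. Within the pump, the median deviation in CTX+HCQ 3 was -0.61 for the 5 shortest genes and -0.48 for the 5 longest, although Atp6v0a1, with exons of 6556 bases, stood at 0.295. With a smooth trend on exon length removed from each library, a setting chosen after the values were seen, 14 of 15 genes were negative in CTX+HCQ against CTX, with a median of -0.20. The part of gene length in the V-ATPase levels was not tested further.

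**Figure D5:**
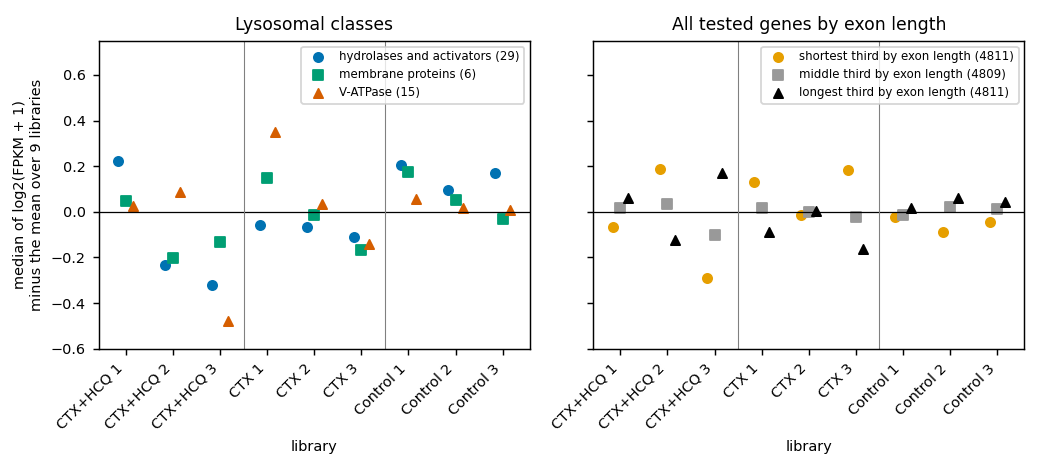
Median deviation of log2(FPKM + 1) from the gene's mean over the 9 libraries, for each library. Left, hydrolases (29 genes), membrane proteins (6) and V-ATPase (15). Right, all tested genes in 3 bins of summed exon length. The V-ATPase is at -0.48 in CTX+HCQ 3 and 0.35 in CTX 1, while the 3 Control libraries are between 0.01 and 0.06. The shortest genes are at -0.29 in CTX+HCQ 3.

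The regulators were expressed at low level. Tfeb (ENSMUSG00000023990), the main transcription factor of lysosomal genes, had 3.30, 3.84 and 2.06 FPKM in CTX+HCQ libraries, 1.95, 1.80 and 2.34 FPKM in CTX libraries, and 2.15, 3.02 and 3.39 FPKM in Control libraries. Tfe3, its paralogue, had 5.04, 4.60 and 5.19 FPKM in CTX+HCQ libraries, 4.89, 5.57 and 4.74 FPKM in CTX libraries, and 4.39, 6.54 and 5.71 FPKM in Control libraries. For Tfeb, 2 CTX+HCQ and 2 Control libraries exceeded every CTX library, but each pair of groups overlapped, and for Tfe3 all groups overlapped. The Tfeb difference was 0.40 in CTX+HCQ against CTX (SE 0.22, 95% interval -0.08 to 0.88, limma adjusted p = 0.906), -0.34 in CTX against Control (SE 0.22, limma adjusted p = 0.667) and 0.07 in CTX+HCQ against Control (SE 0.22, limma adjusted p = 1). The last of these was -0.07 without CTX+HCQ 2 or without Control 1. The Tfe3 difference was -0.03 in CTX+HCQ against CTX (95% interval -0.40 to 0.34, limma adjusted p = 0.988), -0.10 in CTX against Control (adjusted p = 0.854) and -0.13 in CTX+HCQ against Control (adjusted p = 1). Transcript level says nothing of where these factors were in the cell.

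Members with the Tfeb-type element in the promoter were set beside those without it. The 8 members with TCACGTGA had a median log2 fold change of -0.11 in CTX+HCQ against CTX, and the 36 others with a promoter entry -0.07. In CTX against Control the medians were -0.03 with the element and -0.15 without it. For CTX+HCQ against Control they were -0.28 with the element and -0.22 without it.

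Among genes that serve the lysosome but are no members, 0 were called in either direction in any of 5 lists and any comparison. Over all tested genes, 47.9% had a negative log2 fold change in CTX+HCQ against CTX, 50.5% in CTX against Control and 51.9% in CTX+HCQ against Control. Of 15 further hydrolases, 9 had a negative log2 fold change in CTX+HCQ against CTX, 8 in CTX against Control and 14 in CTX+HCQ against Control, with medians of -0.02, -0.07 and -0.19 in that order. Hyal1, which degrades hyaluronan, had the smallest p of them in CTX against Control, with 0.534 ± 0.360 FPKM in CTX and 1.45 ± 0.295 FPKM in Control libraries (SD, n = 3 each), a log2 fold change of -0.69 (SE 0.31, limma adjusted p = 0.639). Next came Glb1, the acid galactosidase whose activity marks senescent cells, which averaged 26.6 ± 2.55 FPKM in CTX and 36.3 ± 4.20 FPKM in Control libraries (SD, n = 3 each), a log2 fold change of -0.43 (SE 0.24, limma adjusted p = 0.653). Gm2a, the activator that presents ganglioside to hexosaminidase, averaged 274 ± 77.7 FPKM in CTX+HCQ and 595 ± 342 FPKM in CTX libraries, a log2 fold change of -0.97 (SE 0.51, limma adjusted p = 0.906). The CTX spread of Gm2a came from 936, 596 and 252 FPKM. Of 17 genes that sort enzymes to lysosomes, 9 were negative in CTX+HCQ against CTX, 13 in CTX against Control (median -0.16) and 15 in CTX+HCQ against Control (median -0.16). Nagpa, which uncovers the mannose 6-phosphate sorting signal of hydrolases, averaged 12.9 ± 1.72 FPKM in CTX and 19.3 ± 2.59 FPKM in Control libraries, a log2 fold change of -0.54 (SE 0.24, limma adjusted p = 0.639).

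Of 13 tested genes for fusion with lysosomes, 8 were negative in CTX+HCQ against CTX, 5 in CTX against Control and 9 in CTX+HCQ against Control. Vps33a, a subunit of the HOPS tethering complex, had the smallest p of them in CTX against Control, with 8.59 ± 1.37 FPKM in CTX and 12.4 ± 1.84 FPKM in Control libraries (SD, n = 3 each), a log2 fold change of -0.48 (SE 0.22, limma adjusted p = 0.640). Of 8 tested genes for other V-ATPase isoforms and assembly, 5 were negative in each comparison, with a median of -0.06 in CTX+HCQ against CTX. Atp6v0d2, an isoform of the subunit that joins the ring to the stalk, averaged 0.844 ± 0.324 FPKM in CTX+HCQ, 1.26 ± 0.179 FPKM in CTX and 0.581 ± 0.0986 FPKM in Control libraries (SD, n = 3 each). Its log2 fold change was -0.30 in CTX+HCQ against CTX (SE 0.21, limma adjusted p = 0.906) and 0.51 in CTX against Control (SE 0.21, limma adjusted p = 0.639), the smallest p of this list in both comparisons. Of 19 genes for nutrient sensing at the lysosomal surface, 8 were negative in CTX+HCQ against CTX, 11 in CTX against Control and 12 in CTX+HCQ against Control. Mtor, the kinase that holds Tfeb in the cytosol, averaged 7.80 ± 1.53 FPKM in CTX and 11.2 ± 0.812 FPKM in Control libraries (SD, n = 3 each), a log2 fold change of -0.49 (SE 0.18, limma adjusted p = 0.639). Lamtor5, a subunit of the Ragulator complex that anchors mTOR signalling at the lysosome, averaged 42.8 ± 8.14 FPKM in CTX+HCQ and 61.5 ± 4.86 FPKM in CTX libraries, a log2 fold change of -0.53 (SE 0.19, limma adjusted p = 0.833). None of these differences passed the threshold.

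Over all 52 members, 37 had a negative log2 fold change in CTX+HCQ against CTX (47.9% of all tested genes) with a median of -0.08, 35 in CTX against Control (50.5%) with a median of -0.15, and 44 in CTX+HCQ against Control (51.9%) with a median of -0.24. Without CTX+HCQ 3, the first count was 23 of 52, with a median of 0.02. With library weights it was 22 of 52 in CTX+HCQ against CTX and 26 of 52 in CTX+HCQ against Control.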

How the data were processed

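Granulosa cell RNA of 9 libraries (CTX+HCQ, CTX and Control, 3 each) was sequenced. The authors deposited 1 table of FPKM per gene. The tools, per the submitters' processing notes, were DESeq2 1.20.0, featureCounts 1.5.0-p3, HISAT2 2.0.5 and fastp 0.23.2, with genome GRCm39 (mm39). Their roles, their settings and strandedness are not given in the sources used here, so overlapping and antisense genes cannot be told apart.

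Symbols and exon lengths came from GENCODE mouse release 21, an annotation of another build, so only the RefSeq promoter windows (GRCm38.p6) carry coordinates. FPKM times length fell on whole reads (tolerance 0.02 reads) for 13578 tested genes with the annotated length, for 848 with a searched length and not for 5, and all 52 members had whole reads with the annotated length. These recovered counts served the depth figures and limma voom.

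Genes with at least 1 FPKM in at least 3 of 9 libraries were tested on log2(FPKM + 1) with limma 3.58.1 (R 4.3.3, variance trend, 1 model over all libraries), with Benjamini-Hochberg adjustment over all tested genes and a threshold of 0.05. The members and all lists were chosen with earlier results of these data known, and no p was computed over a list. Values in every library were given for members called, for members chosen for their role, for the 2 of smallest p in each class and comparison, for the most abundant of each class and for Ctsk, Ctss, Ctsc and Ctsh, while Arsb was added after its values were seen. Other genes were those of smallest p in their list in a comparison described, with Glb1 as the next after Hyal1. The fit was tested on simulated data before use. Within groups the chi-square of recovered reads per degree of freedom was 15.0 to 158, so no library was counted as a copy of another. Libraries with the same replicate number deviated together in 3 of 9 pairs (correlation over 0.1, range -0.457 to 0.135). Those with other numbers did so in 7 of 18 pairs (range -0.291 to 0.315). The numbers were therefore not used as pairs in the main fit, although 3 libraries a group cannot exclude a pairing. Alternatives covered the pseudocount (0.1), the filter, 2 scalings, library weights, the groups in the fit, a replicate block, limma voom (libraries scaled by median ratios), each library left out, CTX 3 and CTX+HCQ 3 left out together, and a length trend removed.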

Additional observations from a re-analysis of the deposited data

How the results depend on the processing

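Under 20 alternatives, 0 of 52 members were called in each comparison, with the smallest adjusted p of a member at 0.138 in CTX+HCQ against CTX, 0.066 in CTX against Control and 0.515 in CTX+HCQ against Control. The number of all genes called was 0 with every setting except 2. With limma's library weights it was 1 in CTX+HCQ against CTX, 648 in CTX against Control and 1 in CTX+HCQ against Control. With 1 library left out it ranged from 0 to 10 in CTX+HCQ against CTX and from 0 to 13 in CTX against Control, the highest counts being those without Control 1, and it was 0 in CTX+HCQ against Control. The cause was not tested. The members' median in CTX+HCQ against Control was -0.0032 with library weights, against -0.24.

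Of 597 values of single members under an alternative, 582 kept their direction and 15 took the other one. In CTX+HCQ against CTX the values that took the other direction included Lamp1 with quantile normalization (0.057) and Atp6ap1 with library weights (0.058). With 1 library left out, the range was -0.18 to 0.79 for Psap, -0.068 to 0.030 for Tfe3, -0.57 to 0.013 for Ctsd and -0.22 to 0.036 for Mcoln1. In CTX against Control they were Lamp1 (0.037) and Scarb2 (0.039) with library weights, Lamp1 without CTX 3 and CTX+HCQ 3 together (0.033) and Tfe3 with the length trend removed (0.053). With 1 library left out, the range was -0.29 to 0.033 for Lamp1 and -0.23 to 0.011 for Tfe3. In CTX+HCQ against Control, the range for Tfeb was -0.074 to 0.26. A replicate block called 0 members and 0 genes in each comparison, and the log2 values are the same by construction, so the block changed no call.

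Each member had at least 123 reads in every library, and standard errors ran from 0.15 to 0.54 with 3 libraries a group; how depth or group size limited the calls was not tested. The drug alone, the pooling of mice and protein or lysosomal activity were not analysed here.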
